A study of Homo sapiens with 171 samples.

Results

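The genes described here are interferon-stimulated genes, a set of 39 named genes that cells switch on after interferon. They were chosen by name, and each was read from the probe set that is annotated to its symbol alone; 37 of the 39 had such a probe set, out of 18417 genes measured in this way. The 2 others were STAT2, for which no probe set is listed, and GBP1, whose only listed probe set carries several symbols. Each of the 37 measured genes had 1 probe set of its own.

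Type I and type III interferons are secreted proteins that bind receptors on the cell surface and signal through the kinases JAK1 and TYK2 to the transcription factor complex ISGF3, which holds STAT2 and IRF9. ISGF3 binds interferon-stimulated response elements in the promoters of its targets, whose products block viral RNA, protein synthesis and release. Cells can also start this program from within, through cytosolic sensors of nucleic acids, and some members can be induced through IRF1, NF-kB or p53 without interferon.

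The data are Affymetrix array profiles of 46 cultured ovarian cancer cell lines, each grown untreated and with cisplatin, a platinum drug that crosslinks DNA. Treated cells received cisplatin for 48 h at the dose that inhibits growth by 50%; the dose of each line is not given in the sources used here. The labels number 5 batches of 43, 38, 30, 24 and 36 arrays, and after repeat arrays of a culture were averaged, 167 cultures remained, 85 untreated and 82 treated. Batches 1 to 3 hold 18 lines with 3 untreated and 3 treated cultures each, except HeyA8 with 2 treated cultures, and the other 28 lines have 1 culture per arm in batch 4 or 5. OVCA433 is in both batch 2 and batch 4, and PA-1 and SKOV-3 have an additional untreated culture in batch 5. The labels name no engineered allele and no other agent, each line is a single cultured population, and resistant derivatives such as C13 and A2780cisR (of A2780) count as lines of their own. Since each culture was measured as a whole, more responding cells and more RNA per cell cannot be told apart.

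Batches 1 to 3 and batches 4 and 5 lie on different scales, with upper quartiles of the arrays of 7.82 to 8.08 and of 5.80 to 6.59 (deposited log2 values), so levels were compared only within a batch. Of the markers of the labelled cell type, KRT8 and KRT18 were high in most lines, with untreated medians of 12.19 and 12.34 in batches 1 to 3, whereas EPCAM ran from 2.06 to 12.26 there and MUC16 and WT1 were low in most lines. The leukocyte markers CD3E, CD3D, CD2 and MS4A1 were low in every line, CD68 had an untreated median of 7.93 and reached 11.11 in batches 1 to 3, PTPRC was high only in OVCAR-10 (9.49, against 4.91 in the next line, UWB1.289) and LYZ only in OV90 (11.54, against 4.85).

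Some arrays stood apart from their line, judged by the correlation across genes after each batch's mean was taken off. In batches 1 to 3 the median array correlated at 0.929 with its nearest array of the same line, whereas treated OVCAR-10 culture 1 reached only 0.512 and came close to untreated DOV13B (0.479). Treated OVCA420 culture 3 reached 0.827 with its own line and 0.463 with treated OVCA429, while treated OVCA420 cultures 1 and 2 reached no more than 0.130 with another line. In these 2 cultures the members move with the resemblance. In OVCA420 culture 3, 14 of 37 members were at least 2-fold above the other treated cultures (2.19% of all genes). All 14 were also at least 2-fold higher in untreated OVCA429 than in untreated OVCA420, as were 394 of the 404 such genes among all genes. In OVCAR-10 culture 1, 10 members were that much higher (4.98% of all genes). All 10 were also at least 2-fold higher in untreated DOV13B, as were 903 of the 917 such genes among all genes. The overlap is therefore not particular to the members. In batch 5, both Hey arrays, both OAW28 arrays and the treated TOV-21G array were closer to another line than to their own. Most counts of calls are given with and without the 2 cultures, and the count over all lines also without Hey, OAW28 and TOV-21G. Other values include these cultures and lines unless a sentence says otherwise. Among these are the counts of 1.5-fold changes over all lines, the spreads between lines, the comparison of C13 with A2008 and all correlations. What set the cultures and lines apart was not tested.

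The promoters of some members are shown because they carry the binding letters that most of this set shares. The RefSeq promoter table (build GRCh38.p14) lists windows of 300 bases, 250 before and 50 after the transcription start, for 32 of the 39 genes. The letters GAAA, any 2 bases and GAAA again, the core of the interferon-stimulated response element, were found on either strand in 23 of these 32 genes (71.9%), against 4.38% of the 27305 genes in the table. The letters TTCNNNGAA, the gamma-activated site, were found in 11 (34.4%), against 9.38% of genes; 7 members had both motifs and 5 had neither. The 170 bases before the start are printed 5′ to 3′ on the strand of the gene, with the matches to this core in capitals for the first 5 genes and the match to TTCNNNGAA in capitals for the last 2. On chromosome 10, IFIT3 lies at chr10:89327827-89327996 (plus strand) and has 2 matches; HERC5 lies at chr4:88456949-88457118 (plus strand) and has 3, of which the first pair overlap. IFI6, at chr1:27672193-27672362 (minus strand), has 3 matches, IFI44L, at chr1:78620278-78620447 (plus strand), has 2 in repeated sequence, and ISG15, at chr1:1013327-1013496 (plus strand), has 2 that overlap. OAS1, at chr12:112906792-112906961 (plus strand), and IRF1, at chr5:132490774-132490943 (minus strand), have 1 match each to TTCNNNGAA and none to the response element core as spelled here. Near its end the OAS1 window holds gaaacgaaa, where only 1 base parts the 2 runs. The search did not count this form, so OAS1 is among the members without the core below, which does not show that it lacks a response element.
IFIT3: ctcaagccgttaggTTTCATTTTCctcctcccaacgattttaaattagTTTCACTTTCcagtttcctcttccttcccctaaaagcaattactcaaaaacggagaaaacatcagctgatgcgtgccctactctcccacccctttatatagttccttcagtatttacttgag
HERC5: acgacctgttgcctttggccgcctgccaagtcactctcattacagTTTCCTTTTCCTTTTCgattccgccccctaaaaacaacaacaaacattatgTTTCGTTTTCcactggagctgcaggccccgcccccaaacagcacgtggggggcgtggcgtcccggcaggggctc
IFI6: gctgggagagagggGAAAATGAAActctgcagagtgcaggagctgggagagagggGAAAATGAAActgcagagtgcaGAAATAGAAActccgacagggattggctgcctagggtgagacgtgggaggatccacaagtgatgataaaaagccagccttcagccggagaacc
IFI44L: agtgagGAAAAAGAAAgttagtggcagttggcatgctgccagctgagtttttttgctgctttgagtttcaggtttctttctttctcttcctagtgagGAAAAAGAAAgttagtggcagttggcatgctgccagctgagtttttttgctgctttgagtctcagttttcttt
ISG15: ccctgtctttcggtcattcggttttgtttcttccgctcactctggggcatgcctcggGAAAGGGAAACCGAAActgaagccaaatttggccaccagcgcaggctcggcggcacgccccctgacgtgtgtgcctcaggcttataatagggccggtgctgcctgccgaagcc
OAS1: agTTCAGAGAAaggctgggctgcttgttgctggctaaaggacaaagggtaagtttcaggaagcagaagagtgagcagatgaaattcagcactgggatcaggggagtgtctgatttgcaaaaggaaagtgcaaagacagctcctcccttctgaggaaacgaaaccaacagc
IRF1: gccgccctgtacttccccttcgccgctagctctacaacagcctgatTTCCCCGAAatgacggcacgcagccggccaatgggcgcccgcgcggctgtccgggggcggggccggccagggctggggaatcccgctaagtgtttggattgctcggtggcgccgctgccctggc
Of the measured members with the response element core in the window, 12 of 22 rose over the 46 lines, with a median change of 0.23, and of those without it 3 of 8 rose, with a median change of 0.16. Of the promoters printed here, those of IFIT3, HERC5, IFI6, OAS1 and IRF1 belong to genes that rose over the lines, and those of IFI44L and ISG15 to genes that did not pass the test. A match is a run of letters in this window and does not show that a factor binds there.

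The first comparison asked whether cisplatin changed the members over all lines. For each line, the change is the mean log2 value of its treated cultures minus that of its untreated cultures in the same batch, and a gene was called with limma when its mean over the 46 lines had a Benjamini-Hochberg adjusted p under 0.05 over all 18417 genes. Of the 37 members, 19 rose and 0 fell, against 4.98% of all genes that rose and 4.72% that fell, and 18 did not pass the test. The mean change was above 0 for 35 members, where it was above 0 for 46.9% of all genes, and the median over the members was 0.21, against -0.0061 over all genes. The changes were small beside the spread between lines: the largest mean, that of TRIM22, was 1.47-fold, and each of the 19 members that rose was higher in 29 to 39 of the 46 lines. The plot of the members' mean changes shows this for each gene. The 46 lines entered as separate units although some are related, so the SEs and p-values may be too small. With lines related by name or descent averaged, 40 lines remained and 19 members rose (6.51% of all genes). Caov-2 and OVCAR-2 were not averaged, though their untreated arrays correlated at 0.796 with each other and at 0.859 and 0.806 with their own lines. Likeness between lines of different batches was not checked.

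**Figure D1:**
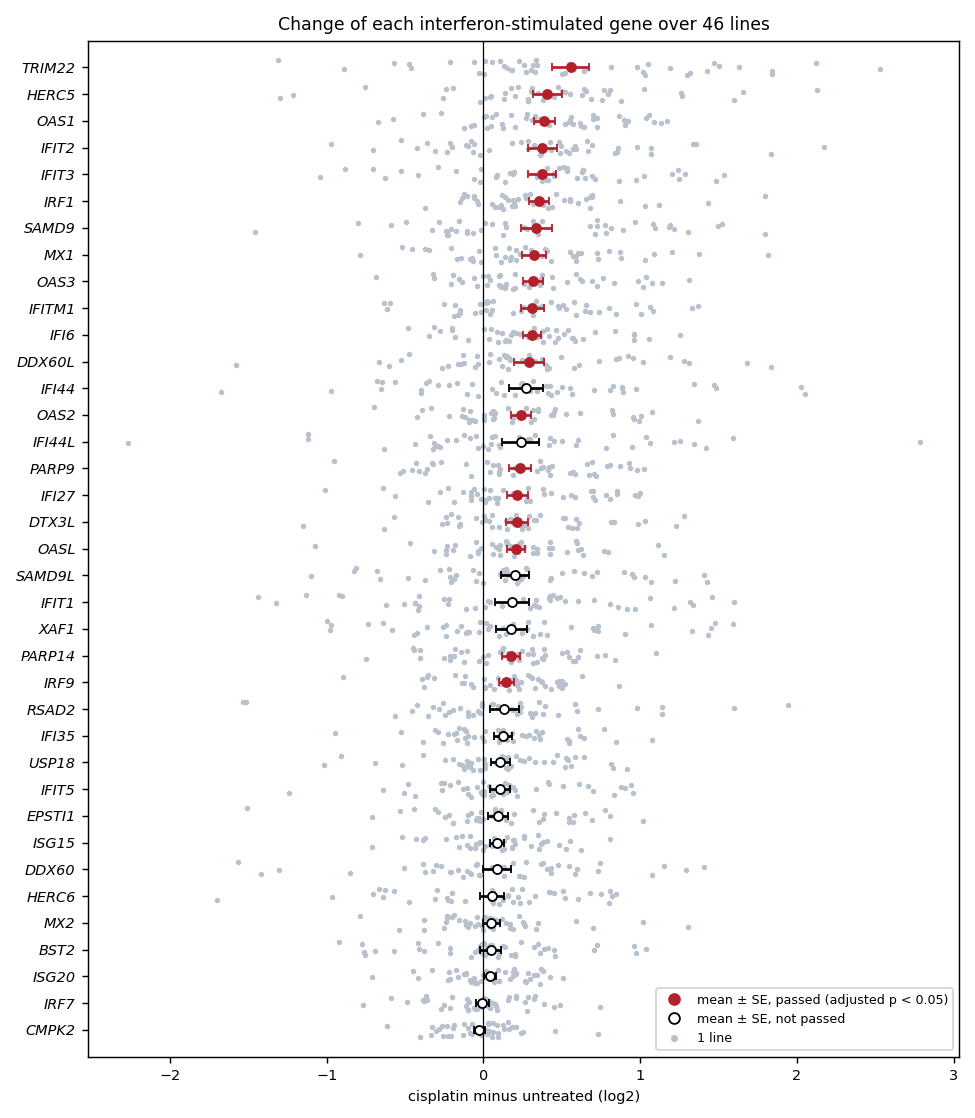
Change under cisplatin (log2, treated minus untreated) of the 37 measured interferon-stimulated genes over 46 cell lines. Grey points are single lines, and large points with bars are the mean and its SE, filled red for the 19 genes that passed (limma, adjusted p under 0.05) and open for the 18 that did not; means run from -0.03 for CMPK2 to 0.56 for TRIM22, and the lines of almost every gene lie on both sides of 0.

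Of the transcription factors, IRF1, which activates interferon and interferon-stimulated genes, rose in the mean by 0.35 ± 0.06 (SE; n = 46 lines; limma adjusted p = 7.2e-05). The lowest line was A2780 at -0.38, the median line was at 0.27 and the highest was SKOV-3 at 1.80, and 37 of 46 lines were higher with the drug. IRF9, the DNA-binding part of ISGF3, rose by 0.15 ± 0.05 (adjusted p = 0.046), from -0.89 in SKOV-6 through a median of 0.19 to 0.86 in FU-OV-1. IRF9 was close to the threshold: it passed in 19 of the 46 fits that left out 1 line, and it did not pass without the 2 cultures that stood apart. IRF7, which drives later interferon production, had a mean of -0.0076 and lay between -0.77 in M41 and 0.75 in Hey.

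All 4 members of the oligoadenylate synthetase family rose; these enzymes make the messenger that activates RNase L, except for OASL, which lacks that activity. OAS1 rose by 0.39 ± 0.07 (adjusted p = 4.1e-05) and was higher in 39 lines, with -0.67 in OV56, a median of 0.37 and 1.17 in OVCA420. OAS3 rose by 0.32, OAS2 by 0.24 and OASL by 0.21. Of the IFIT family, whose products bind foreign RNA and hold back translation, IFIT2 and IFIT3 rose and IFIT1 and IFIT5 did not pass. IFIT2 rose by 0.37 ± 0.09 (adjusted p = 0.0034; 31 lines higher), from -0.97 in OVK-18 through a median of 0.39 to 2.17 in OVCA420. IFIT3 rose by 0.37 ± 0.09 (adjusted p = 0.0022; 35 lines higher), from -1.04 in JHOS-2 through a median of 0.41 to 1.53 in ovary1847. IFIT1 changed by 0.18 ± 0.11 (adjusted p = 0.30), with lines spread from -1.44 in SKOV-3 to 1.60 in ovary1847.

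MX1, a GTPase that traps viral nucleocapsids, rose by 0.32 ± 0.08 (adjusted p = 0.0024; 33 lines higher), with -0.79 in OV56, a median of 0.25 and 1.82 in ovary1847. Its relative MX2 had a mean of 0.05 and did not pass. Of ISG15 and the enzymes around it, HERC5, the ligase that attaches ISG15 to new proteins, rose by 0.41 ± 0.09 (adjusted p = 0.0016) and was higher in 39 lines, from -1.3 in Hey through a median of 0.38 to 2.13 in PEO1. ISG15 itself (mean 0.09), HERC6 (0.05) and USP18, the protease that removes ISG15 and damps receptor signalling (0.11), did not pass. The value of USP18 comes from the 1 probe set with its symbol alone, and a second listed probe set that it shares with other symbols was not used. The ISG15 probe set varied less between untreated lines, with ranges of 1.23, 0.93, 0.81, 0.78 and 2.64 in batches 1 to 5. Those of HERC5 were 4.03, 3.71, 4.79, 4.74 and 4.04. How much of the range of ISG15 its probe set registers was not tested.

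PARP9, DTX3L and PARP14 lie close together on chromosome 3. They act in ADP-ribosylation and ubiquitin signalling at DNA damage and in the interferon response, and rose together by 0.23, 0.21 and 0.18. SAMD9, which holds back translation of viral RNA, rose by 0.34 ± 0.10 (adjusted p = 0.016; 29 lines higher), from -1.46 in Hey through a median of 0.26 to 1.80 in Caov-2, and its neighbour SAMD9L (0.20) did not pass. DDX60L rose by 0.29, with -1.58 in Hey and 1.84 in Caov-3, whereas its neighbour DDX60 (0.08) did not pass. Of the membrane proteins, IFITM1 (0.31), IFI6 (0.31) and IFI27 (0.22) rose, and BST2, which tethers budding virus, had a mean of 0.05 between -0.92 in UWB1.289 and 1.03 in OVCA420. IFI6, a mitochondrial and endoplasmic reticulum protein that counters cell death, was among the steadiest, with an SE of 0.06 and 38 lines higher.

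TRIM22, an antiviral ubiquitin ligase that is also a known p53 target, had the largest mean change, 0.56 ± 0.12 (adjusted p = 0.00054), and was higher in 38 lines, from -1.31 in UWB1.289 through a median of 0.34 to 2.53 in OAW42. The other members of no family had smaller means, and XAF1 (0.18), RSAD2 (0.13), EPSTI1 (0.09), ISG20 (0.04) and CMPK2 (-0.03) did not pass. ISG20 lay between -0.71 in ovary1847 and 0.50 in OAW28, and CMPK2 between -0.61 in RMG-I and 0.73 in Hey. IFI44L, IFI44 and IFI35 did not pass either, although IFI44L and IFI44 were among the members that moved most in single lines. IFI44L (0.24 ± 0.12, adjusted p = 0.20) ran from -2.27 in OV56 to 2.78 in ovary1847, and its SD between lines, 0.81, was the highest of the members. IFI44 (0.27 ± 0.11, adjusted p = 0.086) ran from -1.68 in Hey to 2.05 in Caov-2 with an SD of 0.74. TRIM22 had the second highest SD (0.79), and after IFI44 came IFIT1 (0.73), SAMD9 (0.68), XAF1 (0.66), DDX60L (0.63) and HERC5 (0.63).

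Within batches 1 to 5, the mean over the lines of the batch was above 0 for 36, 35, 37, 32 and 28 of the 37 members, and the medians of these means were 0.28, 0.16, 0.28, 0.25 and 0.09. All 19 members that rose over the lines had a mean above 0 in each of the 5 batches, as did 26 members in all. The 19 were called on these same lines, so their common sign is no separate support. Shares of all genes within batches were not counted. Fitted on its own, no batch with its 5 to 17 lines called more than 3 members. With 1 line left out, 16 of the 19 members passed in all 46 fits, while PARP14 passed in 39, DTX3L in 38 and IRF9 in 19, and with batches weighted equally DDX60L, DTX3L and IFI27 did not pass. Without Hey, OAW28 and TOV-21G, 20 members rose over 43 lines (6.98% of all genes), without the 2 treated cultures that stood apart 18 rose (4.84%), and without both 19 rose (6.88%).

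In single lines, the members' changes differed far more than the mean over lines shows. Over 46 lines and 37 members, 343 of 1702 changes (20.2%) were at least 1.5-fold higher and 88 (5.17%) at least 1.5-fold lower, where 5.76% and 5.33% of the changes of all genes were. TRIM22 and SAMD9 were at least 1.5-fold higher in 18 lines each, IFIT3 and OAS1 in 16, and HERC5 in 15, against 1 line for CMPK2 and IRF7 and 0 for ISG20. The members' median lay above the median of all genes in 39 lines and below it in 7, and the middle line had a difference of 0.17. These medians are descriptions of each line and carry no test.

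**Figure D2:**
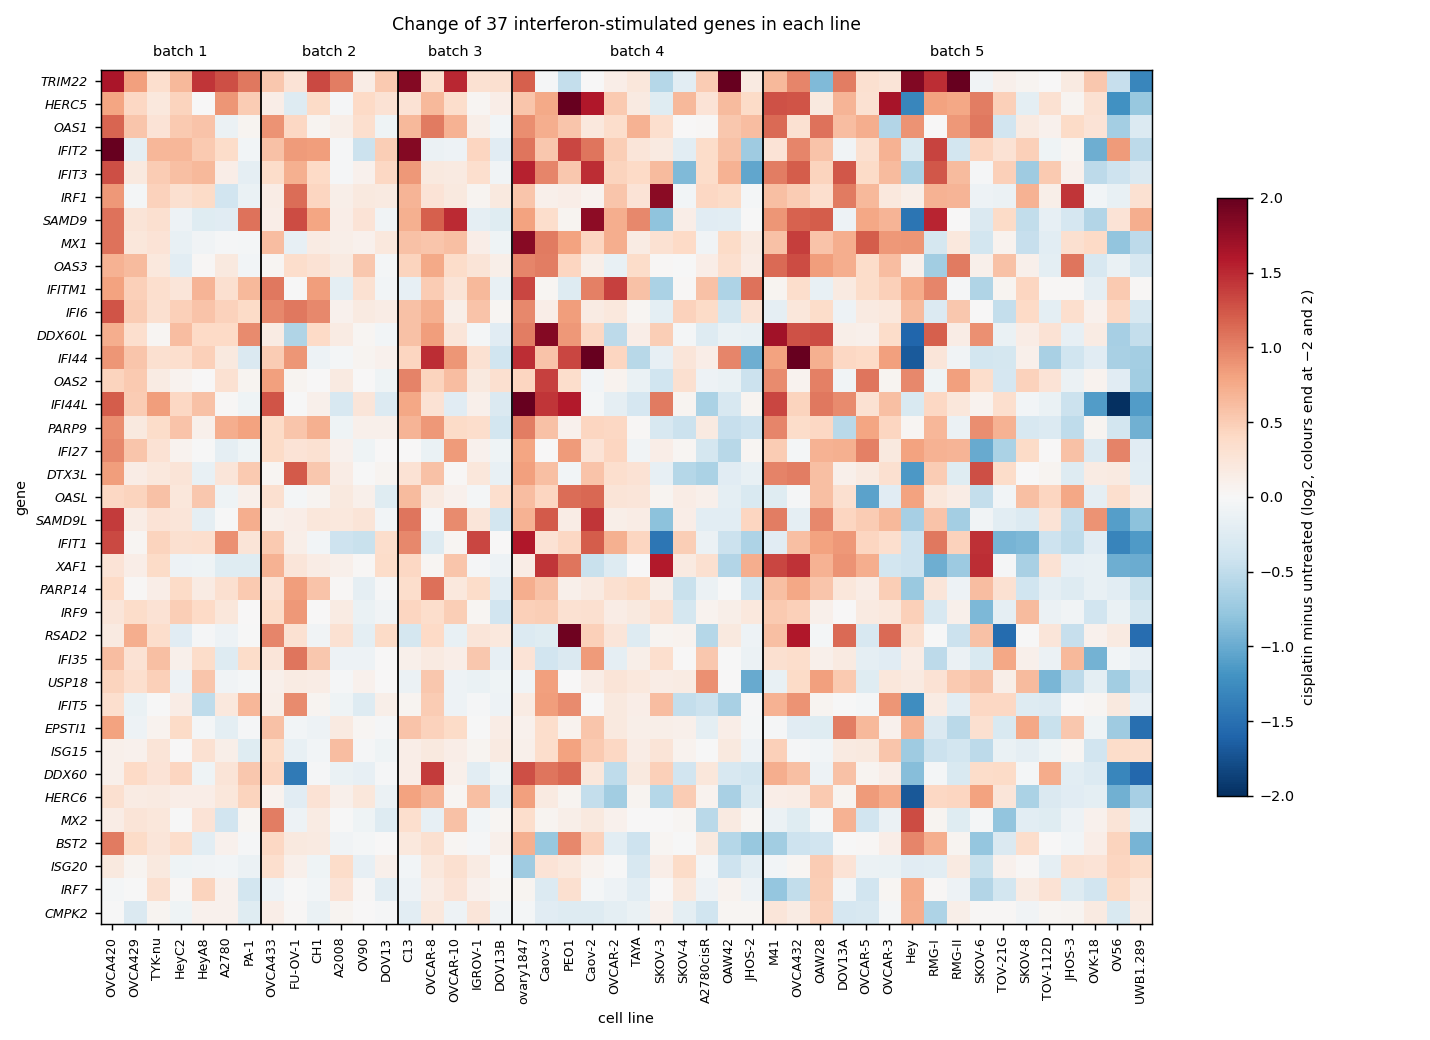
Change under cisplatin (log2) of each of 37 interferon-stimulated genes in each of 46 lines, with genes ordered by their mean change and lines ordered within batches 1 to 5 by the members' median minus that of all genes. Red is higher and blue lower with cisplatin, and colours end at -2 and 2; OVCA420, ovary1847 and M41 are red over most genes, UWB1.289 and OV56 are blue over many, and Hey holds 13 genes at least 1.5-fold higher and 12 lower.

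In 3 lines, at least 19 of the 37 members were 1.5-fold or more higher. OVCA420 had 22 such members (3.57% of all genes) and the highest median, 0.79; without culture 3, 11 members (2.60% of all genes) and a median of 0.38 remained. In ovary1847, 22 members were 1.5-fold higher (3.52% of all genes) and 1 was lower, with a median of 0.73. Its IFI44L went from 5.98 untreated to 8.77 treated, MX1 from 4.77 to 6.59, IFIT1 from 6.52 to 8.12 and IFIT3 from 5.88 to 7.41, while ISG20 went from 4.85 to 4.14. In M41, 20 members were 1.5-fold higher (7.17% of all genes), with DDX60L from 4.12 to 5.80, IFI44L from 6.52 to 7.86 and XAF1 from 5.99 to 7.33. Both lines have 1 culture per arm, so these values have no replicate check. Next came OVCA432 with 16 members (14.1% of all genes), PEO1 with 15 (9.28%), and Caov-3, C13, OAW28 and DOV13A with 14 each (5.81%, 4.02%, 11.2% and 6.28%).

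At the other end, UWB1.289 had 14 members at least 1.5-fold lower (9.77% of all genes) and 1 higher, a median of -0.39 and only 8 members above 0. DDX60 went from 7.39 to 5.83 there, RSAD2 from 5.90 to 4.38 and EPSTI1 from 6.29 to 4.77. In OV56, 13 members were 1.5-fold lower (16.7% of all genes) with a median of -0.21, and IFI44L, at 6.75 untreated and 4.48 treated, had its lowest change of any line. OV90, DOV13 and DOV13B had 0 members 1.5-fold higher (0.337%, 0.983% and 0.592% of all genes) or lower (0.966%, 0.413% and 0.532%), and 24 lines had 0 members 1.5-fold lower. Hey, where 23.9% of all genes were 1.5-fold higher and 36.3% lower, had 13 members higher and 12 lower and gave the lowest value of HERC5, SAMD9, DDX60L, IFI44, HERC6, PARP14, DTX3L, IFIT5 and ISG15. A2780, with a difference of 0.14 between the members' median and that of all genes, and its resistant derivative A2780cisR, with 0.0065, were measured in different batches and are set side by side without a test.

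**Figure D3:**
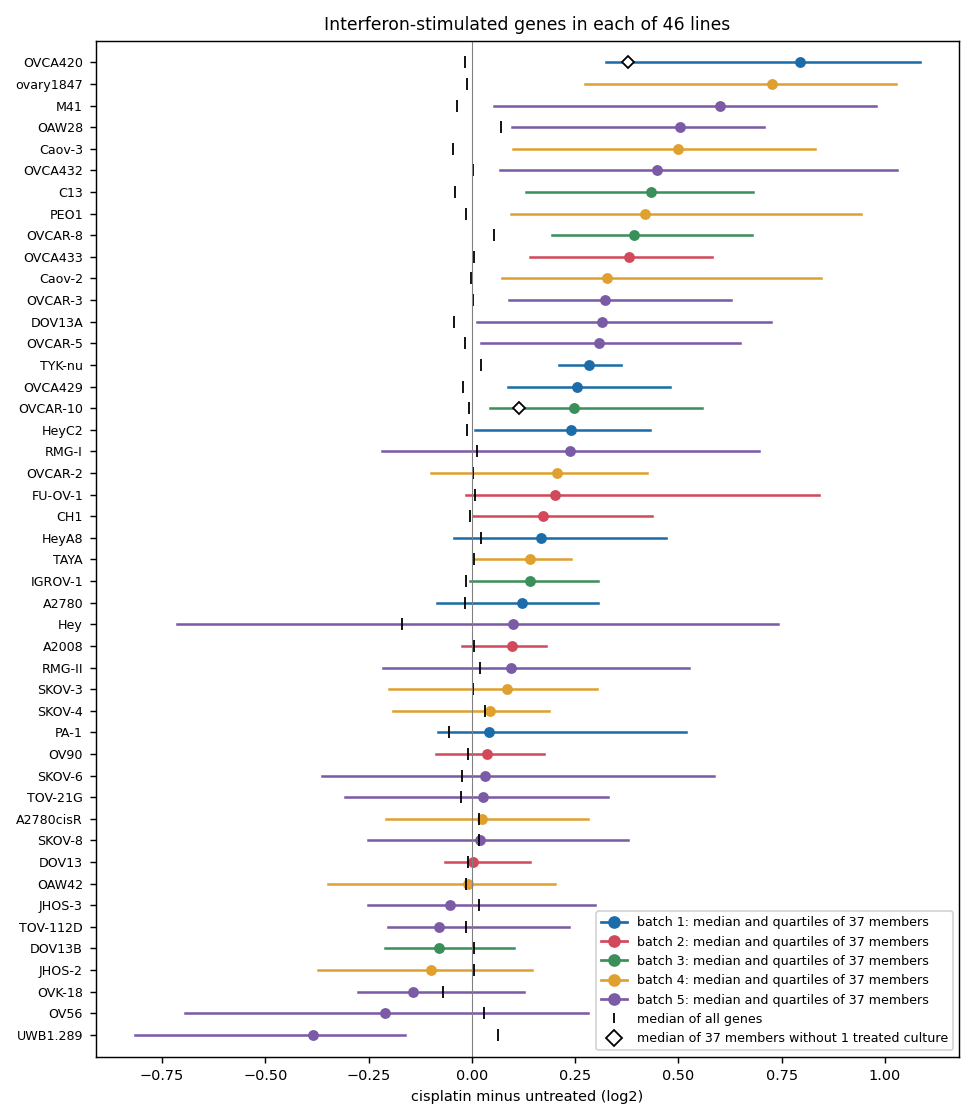
Median and quartiles of the change (log2) of 37 interferon-stimulated genes in each of 46 lines, coloured by batch, with a bar mark for the median of all genes in that line. Open diamonds give the median without the treated culture that stood apart, which moves OVCA420 from 0.79 to 0.38 and OVCAR-10 from 0.25 to 0.11; medians end at -0.39 in UWB1.289.

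The 18 lines with replicate cultures allowed a test within each line, in 1 limma model of 107 cultures that shares the spread between cultures over lines. Nothing in the labels says that numbered cultures were grown on separate days, so these p-values measure the spread between cultures, which may be technical. Of the 666 pairs of a member and a line, 127 (19.1%) rose and 2 (0.3%) fell at an adjusted p under 0.05, against 4.55% and 3.68% of the pairs of all genes. At least 1 member rose in 16 of the 18 lines, 35 of 37 members rose in at least 1 line, and 15 rose in 4 or more. How many of all genes rose in at least 1 line, or in 4 or more, was not counted. These counts over lines therefore do not set the members apart from other genes. Without the 2 cultures that stood apart, 150 pairs rose and 4 fell, and the SE of the change of TRIM22 in a line went from 0.47 to 0.13. Without untreated culture 2 of each line, 82 pairs rose.

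IFI6 rose in the most lines, 11, followed by OAS1 in 9, PARP9 in 8, and PARP14 and IRF9 in 7 each. IFI35 and OAS3 rose in 6 lines and DTX3L in 5, while ISG20 and CMPK2 rose in none with all cultures. The counts of TRIM22 and IFIT2 rest on the 2 cultures: with all cultures TRIM22 rose in 3 lines and IFIT2 in 3, and without those cultures they rose in 10 and 9. TRIM22 in HeyA8 was 8.89, 8.84 and 8.83 untreated and 10.38 and 10.18 treated, a change of 1.42 ± 0.15 (SE) with an adjusted p of 1.7e-12 without the 2 cultures. In CH1 it was 8.07, 8.27 and 8.26 untreated and 9.47, 9.58 and 9.52 treated, a change of 1.32 ± 0.13 (adjusted p = 1.2e-12 without them). In A2780 it went from 4.49, 4.33 and 4.81 to 5.79, 5.75 and 5.97, and the change was 1.3 ± 0.13 (adjusted p = 3.4e-12 without them). The treated cultures lay above all untreated ones in these lines, and TRIM22 also rose without the 2 cultures in C13, PA-1, A2008, OVCA429, HeyC2, OVCA433 and DOV13.

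OVCA420 had the most members that rose, 21 (6.96% of all genes), and with all cultures was the only line where at least 19 of 37 rose. Without the 2 cultures that stood apart, 14 rose there (5.13% of all genes), against 20 in C13 (11.9%) and 19 in OVCAR-8 (10.6%). IFIT2 was 3.70, 4.35 and 4.05 in the untreated cultures and 5.19, 5.08 and 8.34 in the treated ones, and untreated OVCA429 held 9.63, 9.60 and 9.63. TRIM22 was 4.15, 4.10 and 3.99 untreated and 4.43, 4.45 and 8.25 treated, so that cultures 1 and 2 moved little and culture 3 lay near the 9.35 to 9.61 of untreated OVCA429. For IFIT2 the treated cultures did not overlap the untreated ones even without culture 3, and the change was 1.10 ± 0.17 (SE; adjusted p = 1.1e-06), against 2.17 with it; for TRIM22 it was 0.36 ± 0.15 (adjusted p = 0.12), against 1.63.

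For OAS1, IFI6 and IFI44L, culture 3 of OVCA420 made little difference. OAS1 was 7.14, 7.13 and 7.13 untreated and 8.23, 8.15 and 8.53 treated, and the change without culture 3 was 1.05 ± 0.15 (adjusted p = 6.2e-08). IFI6 was 6.14, 6.82 and 6.31 untreated and 7.62, 7.46 and 7.96 treated, with 1.12 ± 0.14 (adjusted p = 1.1e-08). IFI44L was 4.77, 4.75 and 4.60 untreated and 5.90, 5.90 and 5.96 treated, with 1.2 ± 0.24 (adjusted p = 0.00018). In these 3 genes all treated cultures agree and lie above every untreated one. SAMD9, IFI44, SAMD9L, OAS3, PARP9, IFIT1, DTX3L, IFI35, EPSTI1 and IRF1 also passed without culture 3, by 0.95 for SAMD9 down to 0.47 for IRF1; of these, SAMD9 and IFI44 had not passed with all cultures. Several of these changes were much smaller without it: SAMD9L went from 1.41 to 0.77, IFIT1 from 1.32 to 0.63, IRF1 from 0.87 to 0.47 and EPSTI1 from 0.81 to 0.50 (adjusted p = 0.048).

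In OVCAR-10 the calls rest on culture 1. With all cultures 7 members rose (2.93% of all genes), and without culture 1, 0 rose (0.0706% of all genes; limma in both cases); 15 of its members had an unadjusted p under 0.05 with all cultures. TRIM22 was 4.67, 4.72 and 5.24 untreated and 9.36, 4.81 and 4.98 treated, where untreated DOV13B held 9.84, 9.80 and 9.99. Treated cultures 2 and 3 overlap the untreated ones, and without culture 1 the change of TRIM22 was 0.02 ± 0.15 (adjusted p = 1.00) and that of SAMD9 went from 1.5 to -0.19. Other members kept a change of like size but lost the call: OAS1 went from 0.70 to 0.55 ± 0.14 (adjusted p = 0.12), OAS2 from 0.62 to 0.61 ± 0.16 (adjusted p = 0.13) and IRF9 from 0.50 to 0.40 ± 0.12 (adjusted p = 0.27). IFITM1, which did not pass either way, went from 0.25 to 0.66.

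**Figure D4:**
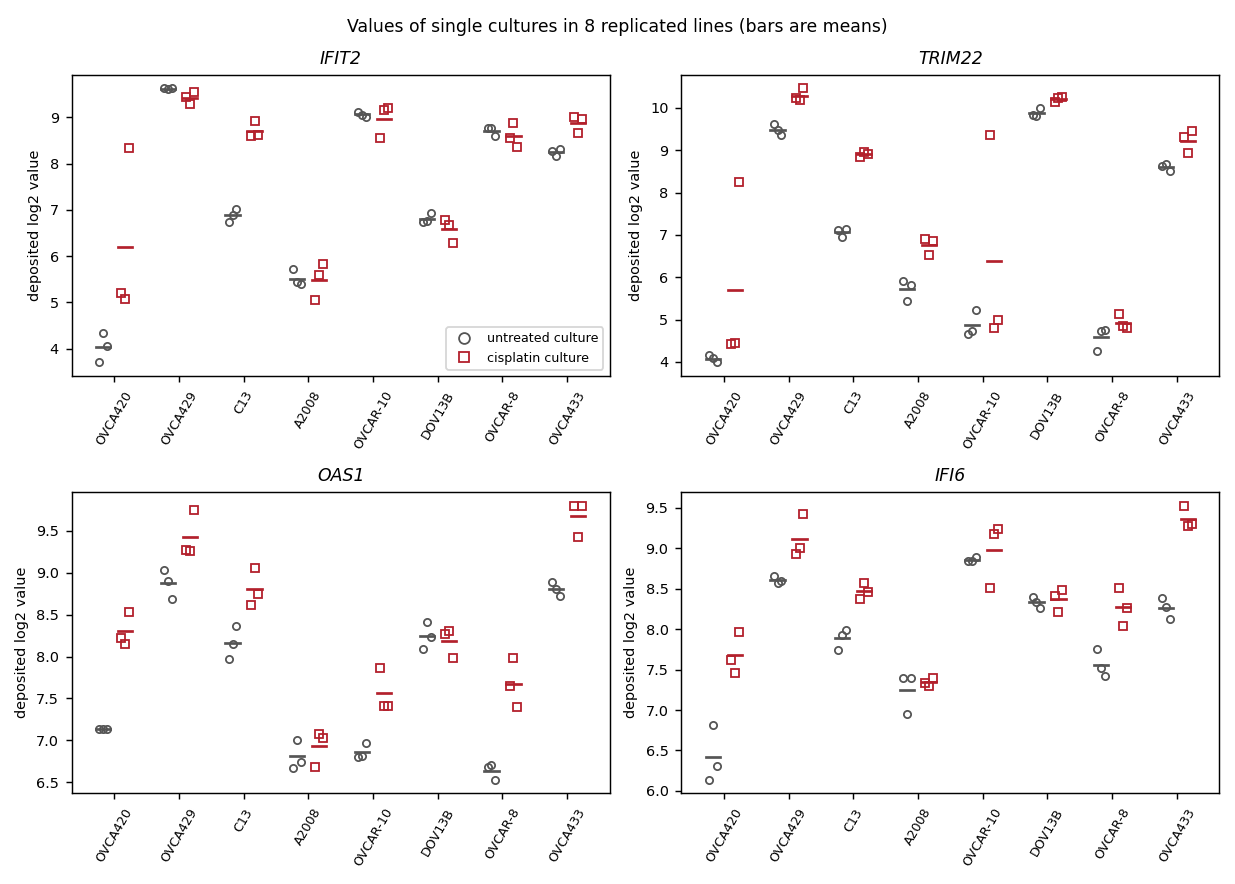
Deposited log2 values of IFIT2, TRIM22, OAS1 and IFI6 in single cultures of 8 lines, untreated (grey circles) and with cisplatin (red squares), with bars for the means. For IFIT2 and TRIM22 treated OVCA420 culture 3 (8.34 and 8.25) lies far above the other 2 treated cultures, as does treated OVCAR-10 culture 1 for TRIM22 (9.36), while the treated cultures of OAS1 and IFI6 in OVCA420 lie together.

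C13, a cisplatin-resistant derivative, raised 18 members (10.3% of all genes). TRIM22 was 7.12, 6.96 and 7.13 untreated and 8.85, 8.97 and 8.91 treated, a change of 1.84 ± 0.47 (adjusted p = 0.0027). IFIT2 was 6.73, 6.89 and 7.02 untreated and 8.59, 8.92 and 8.63 treated, a change of 1.84 ± 0.29 (adjusted p = 1.3e-06). For both genes the 3 treated cultures lay well above the 3 untreated ones. SAMD9L, OAS2 and IFIT1 rose by 1.07, 0.99 and 0.97. In A2008, taken here as its parental line, ISG15 was the 1 member that rose with all cultures (1.76% of all genes), by 0.62 ± 0.15 (adjusted p = 0.0040), from 5.62, 5.52 and 5.36 to 6.23, 5.98 and 6.15. TRIM22 in A2008 had the larger change, 1.03, from 5.92, 5.44 and 5.83 to 6.90, 6.52 and 6.85, and it passed without the 2 cultures that stood apart (SE 0.13, adjusted p = 1.6e-08), where 2 members rose (2.43% of all genes). IFIT2 in A2008 was 5.71, 5.44 and 5.39 untreated and 5.06, 5.59 and 5.82 treated, and the groups overlap.

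OVCAR-8 raised 14 members (9.12% of all genes), with IFI44 at 7.63, 7.44 and 7.61 untreated and 8.79, 9.33 and 8.98 treated (1.47 ± 0.31, adjusted p = 0.00030). PARP14 there went from 8.24, 8.0 and 8.15 to 9.39, 9.22 and 9.08 (1.10 ± 0.12, adjusted p = 8.3e-11), and DDX60, SAMD9 and OAS1 rose by 1.41, 1.19 and 1.04. For IFI44 and PARP14 every treated culture lay above every untreated one. FU-OV-1 raised 14 members where 17.3% of all genes rose, and with all cultures it is the only line in which members fell, 2 of 37 (10.5% of all genes); without the 2 cultures that stood apart, 1 member also fell in HeyA8 and 1 in DOV13B. In FU-OV-1, DTX3L rose from 4.94, 4.48 and 4.67 to 5.93, 5.96 and 5.90 (1.23 ± 0.12, adjusted p = 2.6e-13), with SAMD9, IRF1 and IFI35 at 1.3, 1.12 and 1.07. DDX60, a helicase that aids RNA sensing, was 4.81, 4.34 and 4.75 untreated and 3.17, 3.37 and 3.10 treated, and its change was -1.42 ± 0.19 (adjusted p = 3.4e-09); its neighbour DDX60L fell by 0.60 (adjusted p = 0.027). The members therefore moved in both directions within this line.

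PA-1, labelled an ovarian cancer line like the others and derived from a teratocarcinoma, raised 13 members where 12% of all genes rose, led by SAMD9 (1.08), DDX60L (0.95) and PARP9 (0.81). OVCA433 raised 9 members in a line where 0.852% of all genes rose, and 14 (1.41%) without the 2 cultures that stood apart. Its leading members were IFI44L (1.28), MX2 (1.26), IFI6 (1.11), IFITM1 (1.10) and RSAD2 (1.02), and with all cultures OVCA433 is the only line in which MX2 rose. OVCA433 was also measured in batch 4 with 1 culture per arm: 36 members were above 0 in batch 2 and 31 in batch 4, with medians of 0.41 and 0.24. CH1 and HeyA8 raised 6 members each (1.45% and 5.89% of all genes), IGROV-1 5 (1.69%), HeyC2 and OVCA429 4 each (2.83% and 2.25%), A2780 3 (1.72%), and OV90 and TYK-nu 1 each (1.12% and 0.0543%). IGROV-1 held a large change of a single gene, IFIT1, from 5.85, 5.89 and 5.85 to 7.25, 7.09 and 7.26 (1.34 ± 0.22, adjusted p = 1.1e-05). TYK-nu had 36 of 37 members above 0, but a median of 0.28 and 1 call. Without the 2 cultures that stood apart, the counts were 9 in CH1 (2.03%), 11 in HeyA8 (7.09%), 9 in HeyC2 (4.12%), 8 in OVCA429 (3.1%), 5 in A2780 (2.17%), 6 in IGROV-1 (2.22%), 1 in OV90 (1.32%) and 2 in TYK-nu (0.0977%). Several of the counts with all cultures moved by over 1.5 times when 1 culture number was left out of the model. C13 then had as few as 10 (without treated culture 2), FU-OV-1 8 (without treated culture 2), PA-1 6 (without untreated culture 2), CH1 3 (without untreated culture 1), HeyA8 0 (without treated culture 3), HeyC2 0 (without untreated culture 2), OVCA429 1 (without untreated culture 3), A2780 1 (without untreated culture 1) and IGROV-1 3 (without treated culture 2). In DOV13 (2.64% of all genes) and DOV13B (1.03%) 0 members rose by limma; 1 and 3 members had an unadjusted p under 0.05 there, and without the 2 cultures that stood apart 2 members rose in DOV13 (3.38%), TRIM22 among them, and 1 fell in DOV13B (0.679%).

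Whether the change differs between lines was tested in the same model. The change of 30 of 37 members differed between the 18 lines (limma F test, adjusted p under 0.05), where 51% of all genes passed, and without the 2 cultures that stood apart 32 did; without untreated culture 2 of each line 19 did. The 7 that did not pass were IFI27, ISG15, ISG20, CMPK2, IRF7, TRIM22 and BST2; TRIM22 (adjusted p = 0.28) passed without those cultures (adjusted p = 1.6e-15). Between C13 and A2008, 6 members changed more in C13 (3.57% of all genes) and 0 changed less (1.25%); with 1 culture number left out, 2 to 9 changed more, the fewest without untreated culture 1 or 2 or treated culture 2. IFIT2 changed by 1.84 in C13 and by -0.02 in A2008, a difference of 1.86 ± 0.41 (SE; adjusted p = 0.0024). IFIT1 changed by 0.97 and -0.42, a difference of 1.39 ± 0.31 (adjusted p = 0.0025), and IFI44L, OAS2, PARP9 and HERC6 differed by 1.10, 0.81, 0.75 and 0.71. The 2 lines lie in different batches, but each change was taken within a batch. Between HeyC2 and HeyA8, 0 members passed in either direction (0.494% and 0.261% of all genes), and between DOV13B and DOV13 0 did (0.0217% and 0.0597%).

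The untreated level of the members differed widely between lines. In batches 1 to 3, the untreated level of all 37 members differed between the lines of a batch (limma F test), but so did that of 86.8% of all genes; within batches 1, 2 and 3, 37, 37 and 36 members passed (77.1%, 79.8% and 76.7% of all genes). By size, the members were more distinct: over the lines, within batches, the SD of 22 of the 37 lay above the 90th percentile of all genes, and their median percentile was 93.8. SAMD9 was at percentile 99.7 and IFI44 at 99.5, whereas ISG15, CMPK2, IRF7 and ISG20 were at 50.7, 34.5, 25 and 13.2. These 4 genes also had the smallest SDs of the change under cisplatin between lines, from 0.23 for CMPK2 to 0.30 for ISG15.

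Several lines expressed most of the members without treatment. In OVCA429 the members' median lay 1.69 above the median of batch 1, and 27 members were at least 2-fold above it (5.2% of all genes); IFIT2 stood 4.00 above. TYK-nu followed in that batch with a median of 1.07 and 20 members (4.5% of all genes), led by OAS2 at 5.73. OVCA433 was high in both of its batches, with a median of 1.43 and 26 members in batch 2 (4.37%) and 1.05 and 19 members in batch 4 (3.52%). JHOS-3 had the highest untreated level of batch 5, a median of 2.30 and 30 members (3.78%), with IFI44L 6.74 above the batch median, and UWB1.289 followed with 1.10 and 22 members (5.24%). Caov-3, in batch 4, had 1.03 and 19 members (4.1%), led by IFI27 at 4.30. The lowest line of batch 3 was IGROV-1, at -0.91 with 18 members at least 2-fold below the batch median (3.21% of all genes). In the other batches the lowest were PA-1 in batch 1 (-0.45), FU-OV-1 in batch 2 (-0.67), SKOV-4 in batch 4 (-0.65) and TOV-112D in batch 5 (-0.67). SKOV-6 (-0.48) and PA-1 (-0.45) were also low in batch 5. Each batch median rests on other lines, so these values rank lines only within a batch.

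**Figure D5:**
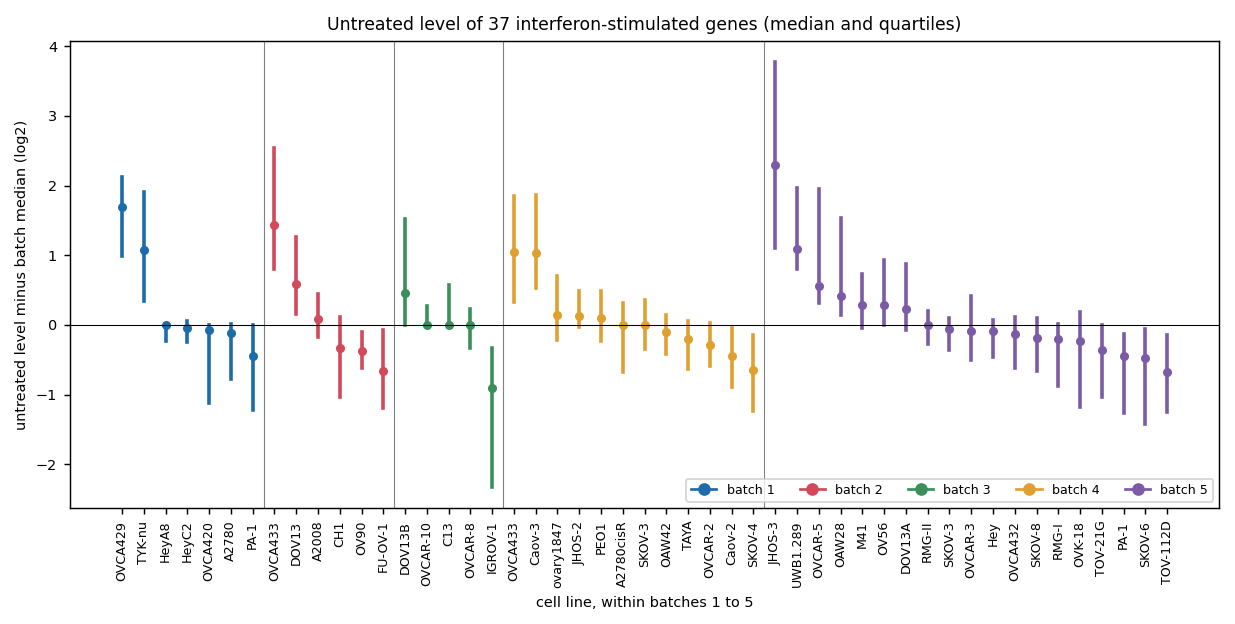
Untreated level of 37 interferon-stimulated genes in each line, as the log2 value minus the median over the lines of the same batch; points are the median over the genes and bars the quartiles, in order of level within each batch. JHOS-3 (2.30), OVCA429 (1.69) and OVCA433 (1.43 in batch 2 and 1.05 in batch 4) lie highest in their batches, and IGROV-1 (-0.91) lowest in its batch. Each batch median rests on other lines, so values rank lines only within a batch.

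A high untreated level did not go with one kind of response. JHOS-3 kept its level, with IFI44L at 11.37 untreated and 10.94 treated and OAS1 at 9.63 and 10.02, while its IRF1 went from 3.54 to 4.97. UWB1.289, also high untreated, was the line with the most members lower, Caov-3, high untreated, had 14 members 1.5-fold higher, and OVCA429 raised 4. Over 46 lines, the members' median change minus that of all genes correlated with their untreated level at a Pearson r of 0.04 (Spearman 0.16). The 46 points share their untreated arrays between both measures and this is a description with no test; within batches 1, 2, 4 and 5 r was -0.05, 0.49, 0.46 and -0.15, and batch 3 holds only 5 lines.

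The pathway around the members gave a mixed picture over the 46 lines, in lists put together with results of these data known. Of all genes, 4.98% rose and 4.72% fell over these lines. Of the interferon genes themselves, 16 were measured and 0 rose or fell (limma; 1 had an unadjusted p under 0.05). That gene was IFNE, with a mean of 0.14 (adjusted p = 0.15), and IFNB1 had a mean of 0.0083, with its highest value in Hey (2.34). Of the receptors, kinases and STATs, 1 of 10 measured rose, STAT3 by 0.18 (adjusted p = 0.039), and IFNAR1 (0.03) and JAK1 (0.0072) did not pass. Of the negative regulators, 0 of 6 passed, with SOCS1 at 0.05. Of 15 sensors and their kinases, 2 rose: RIGI, the RNA sensor, by 0.25 (adjusted p = 0.045) and IFI16, a DNA sensor, by 0.23 (adjusted p = 0.047). The RNA sensor IFIH1 (0.17) and STING1 (0.14) did not pass. Within the replicated lines, SAMHD1 rose in 5, RIGI, STING1 and IKBKE in 4 each and IFIH1 in 2. CGAS, ZBP1, AIM2 and ADAR rose in 0. IL10RB and STAT3 rose in 4 lines each, and IFNAR2 in 2, by 1.11 in OVCAR-8. The share of all genes that rose in as many lines was not counted.

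Of 26 further interferon-induced genes that are not members, 6 rose and 0 fell (4.98% and 4.72% of all genes), 21 were above 0, and the median was 0.15. IFIH1 and IFI16 are in this list and among the sensors, so IFI16 is counted in both. ZNFX1, an RNA helicase sensor at mitochondria, rose by 0.40 (adjusted p = 2.9e-06) and was higher in 42 of 46 lines. PSMB9 (0.31), TAP1 (0.29) and PSMB8 (0.20), parts of the immunoproteasome and the peptide transporter for antigen presentation, rose, as did PML (0.16) and IFI16. In the replicated lines, ZNFX1 rose in 7, and TAP1 and PML in 6 each. CXCL10, a chemokine, had a mean of 0.37 ± 0.14 that did not pass (adjusted p = 0.066), with lines from -2.16 in UWB1.289 to 2.99 in OVCA432. Of the marker lists, KRT19 fell by 0.23 (1 of 8 epithelial markers, against 4.72% of all genes). CD68 and LYZ rose by 0.26 and 0.35 (2 of 13 leukocyte markers, against 4.98% of all genes), and PTPRC, CD3E and MS4A1 did not pass. The part of these marker changes in the members' result was not tested. Among genes of other stress pathways, 20 of 25 measured p53 targets and 14 of 24 NF-kB targets rose over the lines (4.98% of all genes), in lists of well-known targets.

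Changes over lines went together more closely for neighbours in the genome than for most other pairs of members. After each batch's mean was taken off, the 666 pairs of members had a median Pearson r of 0.19 over 46 lines, and 503 pairs were above 0. The 18 pairs of neighbouring genes had a median of 0.51 and the 648 other pairs of 0.18. Neighbours here are members that lie close together on a chromosome, with or without other genes between them. PARP14 and DTX3L had the highest r, 0.86. Of the other neighbours, PARP9 and PARP14 had 0.76 and DDX60 and DDX60L 0.71. The highest pair of members that are not neighbours had 0.74. The neighbours RSAD2 and CMPK2 had -0.007. The points share arrays and, for neighbours, possibly transcripts, and these values carry no test.

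The genes nearest to the mean of the other members were IFI44L (r = 0.77), IFI44 (0.73), IFIT3 (0.71) and MX1 (0.70), and the farthest were IRF7 (-0.26), ISG20 (-0.10) and CMPK2 (-0.10). TRIM22, with the largest mean change, followed the other members only at 0.16. With each batch's mean taken off, TRIM22 followed the mean change of 25 measured p53 targets at 0.50. The members' median did so at 0.03 without that step, so the 2 values are not measured alike. TRIM22 in OVCA420 and OVCAR-10 here includes the cultures that stood apart, and no r without them was computed. Of all genes outside the set, CXCL10 (0.69), IFIH1 (0.66), KRT23 (0.65) and PLSCR1 (0.64) had the pattern over the 46 lines nearest to the mean of the members. The members' median also went with the mean change of the sensors, at a Pearson r of 0.55 (0.68 without the 2 lines farthest out), with the receptors and signalling genes at 0.38, and with the NF-kB targets at 0.41. Within batches 1, 2, 4 and 5 these values were uneven: 0.89, 0.43, 0.72 and 0.44 for the sensors, 0.48, 0.12, -0.07 and 0.44 for the receptors, and 0.74, -0.13, 0.13 and 0.55 for the NF-kB targets. The members' median went with the interferon genes at 0.02 over all lines and at 0.54, 0.50, 0.42 and -0.05 within those batches, and with the spread of all genes' changes in the line at -0.09. These lists share arrays and normalization with the members, and IFIH1, RIGI and IFI16 are themselves induced by interferon.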

How the data were processed

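RNA of 171 arrays was labelled and hybridised to Affymetrix arrays. The authors deposited log2 values per probe set after RMA, per the submitters' processing notes; whether batches were normalized together is not given in the sources used here. Of 33297 probe sets, 19460 are listed with 1 symbol, 1754 with several and 12083 with none, and 18417 genes were kept, each by the probe set whose mean was highest, with no filter on low values. Repeat arrays of a culture were averaged. Groups and batches came from the labels.

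Tests used limma 3.58.1 in R 4.3.3 (lmFit, eBayes, Benjamini-Hochberg over all genes, threshold 0.05): 1 difference per line over 46 lines (165 cultures; untreated cultures with no treated partner in their batch stayed out, and OVCA433 entered with both batches combined), and a mean per line and arm in 18 replicated lines (71 residual degrees of freedom). Fits were tested on simulated data. Values are given for the members with the 8 largest and 4 smallest mean changes, the 8 with the largest spread between lines and the IRF genes, and in a line for up to 5 called members. Of the pathway lists, called genes were named, and otherwise up to 2 of a list; TRIM22 and DDX60L in FU-OV-1, 1-culture lines and genes named beside a count were chosen after their values were seen. Deviations of same-numbered cultures from their group mean correlated at -0.502 to 0.424, over 0.1 for every pair in 0 of 18 lines. Culture numbers were therefore not used as pairs in the main fits. With so few cultures per arm this check cannot exclude pairing, and counts with a replicate block are given below. Figures used Python 3.11.15 with matplotlib 3.10.9. Alternatives covered batches, lines, replicates, probe sets, centring and fold thresholds. The members and lists were chosen with earlier results of these data known. The number of arrays limits the precision.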

Additional observations from a re-analysis of the deposited data

Results flagged for a closer look

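The median change of the members in OVCA420 was 0.79, far above the next line of batch 1, TYK-nu at 0.28. The gap is 0.678 of the whole range of the 7 lines of that batch, against a critical ratio of 0.568; chance exceeds this ratio in about 1 group in 20, and 12 such gaps were looked at. Without treated culture 3, whose array also resembled OVCA429, the median of OVCA420 was 0.38.

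The change of 30 members under cisplatin differed between the 18 replicated lines by the limma F test, where 51% of all genes passed. In the related pair C13 and A2008, 6 members changed more in C13 (3.57% of all genes), with IFIT2 and IFIT1 showing the widest differences, 1.86 and 1.39.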

How the results depend on the processing

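The count of 19 members that rose over all lines stayed between 16 and 20 with batches weighted equally, related lines averaged, repeats left out, other probe set or centring rules, the dimmest genes left out, any 1 line left out, or either addition chosen after the data were seen (without Hey, OAW28 and TOV-21G, with or without the 2 cultures). Without the lines of batches 1, 2, 3, 4 and 5 in turn it was 12, 13, 13, 11 and 22. The 18 lines of batches 1 to 3 gave 20 members (4.1% of all genes). The 28 lines of batches 4 and 5 gave only 5 (2.56%). Batches 1 to 5 alone, which hold fewer lines, gave 1, 0, 0, 3 and 0, and a test against a 1.2-fold change gave 0. Leaving out 1 replicate gave 18 to 19. The 127 pairs that rose in replicated lines became 82 to 119 with 1 replicate left out and 40 against 1.2-fold, and the 2 that fell became 1 to 2, 1 against 1.2-fold, 4 with each line fitted alone and 4 without the 2 cultures. The F test called 19 to 30 members with 1 replicate left out. C13 minus A2008 gave 2 to 9 members higher and 0 to 1 lower with 1 replicate left out, and HeyC2 minus HeyA8 gave 1 lower without the 2 cultures. Lines with at least 19 members higher numbered 10 at 1.3-fold and 0 at 2-fold instead of 3. The cause of these shifts was not tested.

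With a replicate block the counts were 19 members over all lines, 111 pairs, 25 members in the F test and 4 for C13 minus A2008; the block moved the count of calls by over 1.5 times only in HeyA8, from 6 to 1. No result changed direction among these counts. Signal over background was not given, so dim genes have only a value without a detection limit. The dimmest members were RSAD2, EPSTI1 and MX2, with means over all arrays of 4.08, 4.18 and 4.37. They dropped out when the dimmest genes were left out.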
